A study of Homo sapiens with 6 samples.

Results

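The pocket proteins, the MuvB core and the activators MYBL2 and FOXM1 are the machinery that switches cell cycle genes off in resting cells and on in dividing ones. The set was defined by name and held 10 genes of the 19775 measured: the pocket protein genes RB1, RBL1 and RBL2, the MuvB core genes LIN9, LIN37, LIN52, LIN54 and RBBP4, and MYBL2 and FOXM1. Every probe set annotated to just 1 of these symbols was taken, which gave 24 of 41091 such probe sets. A probe set is a group of short array probes read as 1 value. Transcript levels came from 76N, a culture-adapted normal mammary epithelial line of human origin kept in DFCI-1 medium. The cells were transfected with an siRNA against Ecd (n = 3 arrays) or with a control siRNA (n = 3 arrays), and the labels call the arrays of each group biological replicates. The target gene is ECD, named after ecdysoneless of Drosophila. All 6 cultures were of 1 cell line and all were transfected, and an untransfected culture was not analysed here. For the siRNAs the sources used here state no sequence, dose or harvest time.

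Pocket proteins bind E2F transcription factors and hold their target genes silent until cyclin-dependent kinases phosphorylate them. RB1 mainly restrains the activator E2Fs. RBL1 (p107) and RBL2 (p130) join E2F4 or E2F5, a DP partner and the MuvB core to form DREAM, a repressor of both early and late cell cycle genes. When cells commit to division, MuvB leaves the pocket protein, binds MYBL2 (B-MYB) and later recruits FOXM1, and the same core then activates genes of mitosis. RBL1, MYBL2 and FOXM1 are themselves known E2F or DREAM targets, so they are both parts of the machinery and genes under its control.

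Because E2F and DREAM act through short promoter words, the bases just before the start sites of 5 members are shown. RBL1 and MYBL2 are the members with a promoter entry whose brightest probe set fell. LIN52 and RBBP4 are core genes that carry words of the same E2F type, and RBL2 is the sister gene of RBL1. Sequences are those of RefSeq on GRCh38.p14, strand of the gene, from base -100 to base -1, and capitals mark the E2F-type words TTGGCGC and its variant TTGGCGG, as well as TTCCCGC and TTCGCGC, on either strand. In RBBP4 the capitals hold TTGGCGC and, overlapping it, TTCGCGC on the opposite strand.
RBL1 (chr20:37095998-37096097, minus strand): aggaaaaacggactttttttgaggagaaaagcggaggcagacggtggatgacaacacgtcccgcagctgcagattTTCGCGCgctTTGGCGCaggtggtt
MYBL2 (chr20:43667014-43667113, plus strand): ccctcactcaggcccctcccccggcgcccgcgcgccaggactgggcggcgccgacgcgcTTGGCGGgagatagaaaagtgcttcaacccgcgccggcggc
LIN52 (chr14:74084856-74084955, plus strand): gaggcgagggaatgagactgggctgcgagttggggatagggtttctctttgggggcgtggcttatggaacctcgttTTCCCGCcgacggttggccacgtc
RBBP4 (chr1:32651108-32651207, plus strand): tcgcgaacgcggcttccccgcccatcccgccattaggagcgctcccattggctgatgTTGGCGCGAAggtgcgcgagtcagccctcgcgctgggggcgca
RBL2 (chr16:53434371-53434470, plus strand): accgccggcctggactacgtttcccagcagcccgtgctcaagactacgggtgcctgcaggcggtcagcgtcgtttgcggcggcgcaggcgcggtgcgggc

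Of the 10 members, 9 matched the promoter table, which had no entry for FOXM1. An E2F-type word lay in the 300-base window of 8 of their 15 starts, which belong to RBL1, MYBL2, LIN9, LIN52, LIN54 and RBBP4. It lay in 13.8% of all 35116 promoter windows of that length. Starts of 1 gene can share bases. In RBL1 the words began at bases -25 and -15, and in MYBL2 the word began at base -41. The CHR-type words TTTGAA and TTCGAA, the kind of letters that MuvB reads through LIN54, lay in the windows of 5 of the 15 starts (of RBL2, LIN9, LIN37 and LIN54) and in 16.4% of all windows. Words were searched on both strands, and E2F-type and CHR-type words did not overlap in these windows. These matches describe letters, and the words were chosen with the sequences in view.

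The siRNA target was lower. ECD had signals of 588.9, 599.8 and 542.5 with Ecd siRNA against 1076.6, 1011.4 and 1007.2 with control siRNA, so 55.9% of the control signal remained (limma adjusted p = 0.000172). Median array signals were 134.6 to 146.7 with Ecd siRNA and 128.7 to 147.6 with control siRNA. The 3'/5' signal ratio of GAPDH, a check of RNA integrity, was 0.974 to 1.003 with Ecd siRNA and 0.974 to 0.980 with control siRNA. Keratin genes of basal mammary epithelium were bright. KRT14 was at 22350 ± 1273 with Ecd siRNA and 21386 ± 1315 with control siRNA, and KRT5 was at 16024 ± 1302 with Ecd siRNA and 16435 ± 1556 with control siRNA (SD, n = 3 each). Summed signals of 10 luminal markers were 12982 to 13746 with Ecd siRNA and 13519 to 14029 with control siRNA. Those of 10 fibroblast markers were 22778 to 25069 with Ecd siRNA and 19224 to 19929 with control siRNA. The brightest of these were VIM, at 16564 with Ecd siRNA and 15016 with control siRNA, and FAP, at 5334 and 2610. Of the 10 fibroblast markers, 6 lay above the filter described below, namely VIM, FAP, COL1A1, THY1, COL1A2 and DCN. The other 4 (PDGFRA, PDGFRB, LUM and COL3A1) lay under it. Of 7 endothelial and leukocyte markers, 2 lay above it, and their sums were 709.8 to 770.4 with Ecd siRNA and 730.8 to 937.9 with control siRNA. Their part in the results was not tested.

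FOXM1, MYBL2 and RBL1 fell, all of them genes that cycling cells switch on, and 0 rose. MYBL2 retained 15.5% of its control signal and RBL1 29.2%. FOXM1 was at 4.22%, a value that rests on Ecd siRNA signals under the level of the filter described below and is not an exact share. RB1, RBL2, LIN9, LIN37, LIN52 and RBBP4 did not pass the threshold in their brightest probe sets, and LIN54 was too dim to be tested. The test was limma on log2(signal + 16) over 14603 genes, each read by its brightest probe set, with Benjamini-Hochberg adjusted p below 0.05 as the threshold. A gene entered it if its brightest probe set was in the upper 60% of probe sets when ranked on mean log2 value, a level near a signal of 84.6. In this fit 3 of 9 tested members (33.3%) were called, while 21.1% of all tested genes were called, 11.0% lower and 10.1% higher. The median log2 change was -0.35 over the 9 tested members and 0.0078 over all tested genes. The 2 groups of arrays did not overlap in 4 of the 9, all lower with Ecd siRNA, against 36.4% of all tested genes, 18.3% lower and 18.1% higher. FOXM1 is in both counts though it entered the test through its control arrays alone, so the counts are given as descriptions. These were bulk cultures, so fewer cells that express a gene and less RNA per cell cannot be told apart.

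**Figure D1:**
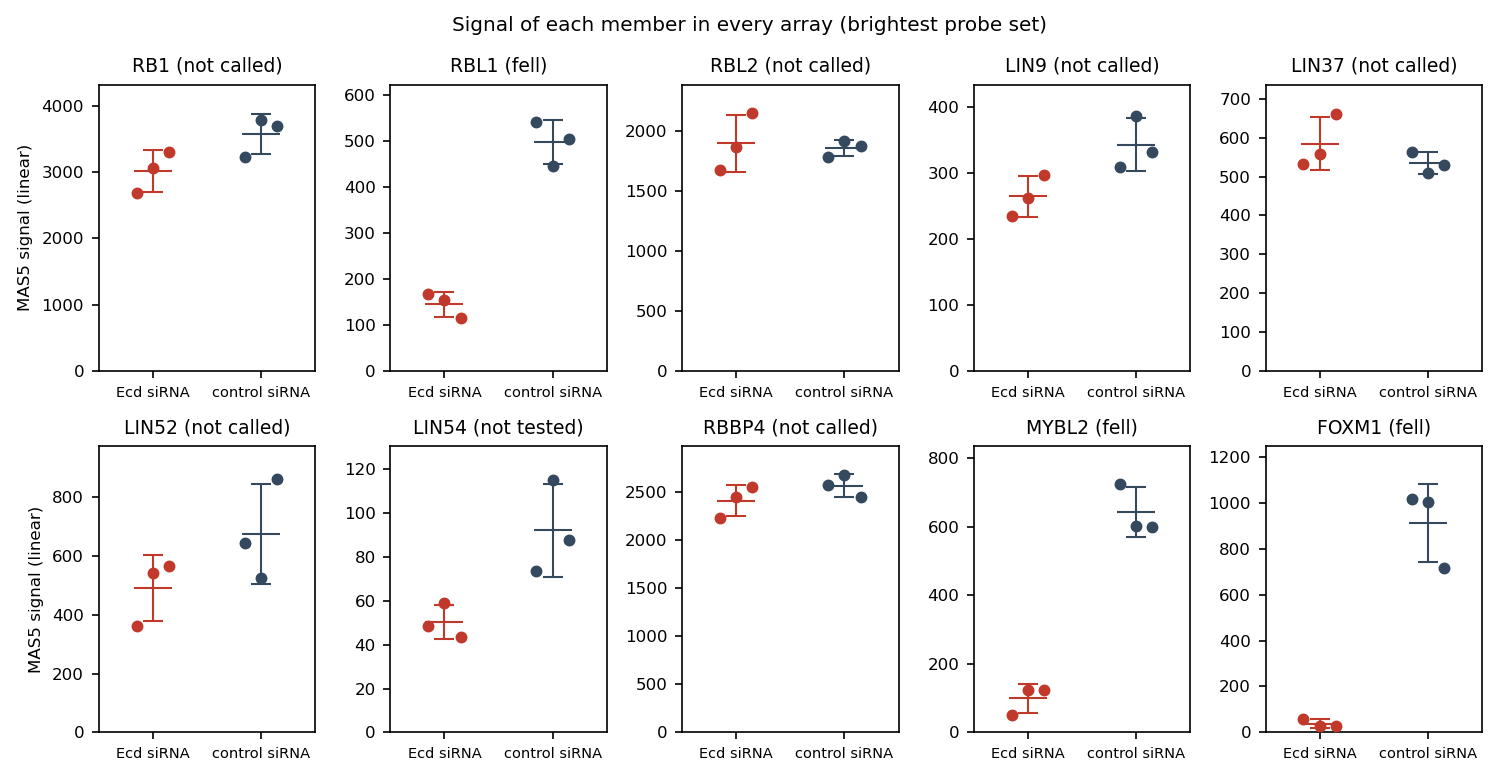
Deposited MAS5 signal (linear scale, each axis from 0) of the brightest probe set of each of the 10 members. Points are arrays (red Ecd siRNA, dark blue control siRNA, 3 each), bars are mean and SD, and scales differ between panels and are not comparable between genes. In RBL1, MYBL2 and FOXM1 the Ecd siRNA arrays lie far below the control arrays, whereas in RB1, RBL2, LIN37, LIN52 and RBBP4 the groups overlap.

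FOXM1 encodes the forkhead factor that drives the late wave of mitotic genes. Its single probe set, 202580_x_at, had signals of 60.1, 28.4 and 27 with Ecd siRNA against 1015.1, 1003.6 and 717.1 with control siRNA. All 3 Ecd siRNA values lay under the filter level, while the lowest control value was far above it. The means were 38.5 ± 18.7 with Ecd siRNA and 911.9 ± 168.8 with control siRNA (SD, n = 3 each). The log2 change was -4.12 (SE 0.25, 95% interval -4.69 to -3.56, limma adjusted p = 1.93e-06). FOXM1 entered the test through its control arrays alone. With the Ecd siRNA signals so dim, neither the size nor its place among the falls is well set, and the change was -3.25 with a pseudocount of 64 and -4.61 with 1. Probe sets ending in _x_at can bind transcripts of other genes, and no other FOXM1 probe set was analysed here.

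MYBL2 encodes B-MYB, the partner that turns MuvB from a repressor core into an activator. Its single probe set gave 51.4, 123.2 and 124.1 with Ecd siRNA against 725.2, 600.4 and 599.2 with control siRNA. The groups were far apart, and Ecd siRNA replicate 1 was the lowest array, with a signal under the filter level. The means were 99.6 ± 41.7 with Ecd siRNA and 641.6 ± 72.4 with control siRNA (SD, n = 3 each). The log2 change was -2.58 (SE 0.27, 95% interval -3.18 to -1.98, limma adjusted p = 7.79e-05), the fall ranked 29. Without Ecd siRNA replicate 1 it was -2.23.

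Among the pocket proteins RBL1, whose protein p107 accumulates in cycling cells, was the one that fell. Its brightest probe set, 205296_at, gave 167.0, 153.8 and 114.6 with Ecd siRNA against 540.6, 446.2 and 505.1 with control siRNA. Every Ecd siRNA array was below every control array. The log2 change was -1.68 (SE 0.17, 95% interval -2.07 to -1.29, limma adjusted p = 7.63e-05), the fall ranked 115.

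The other 3 RBL1 probe sets did not all repeat this size. Probe set 1555004_a_at gave 109.6, 151.8 and 129.4 with Ecd siRNA against 274.5, 246.6 and 228.5 with control siRNA, a log2 change of -0.87. It also passed when each of 27009 probe sets was tested on its own (limma adjusted p = 0.0122), though not without control replicate 1 (adjusted p = 0.0593 in limma). Probe set 1559307_s_at varied widely, at 155.7, 172.2 and 30.2 with Ecd siRNA against 147.4, 174.7 and 87.2 with control siRNA, and was not called (log2 change -0.37, adjusted p = 0.694 in limma). Probe set 1555003_at went the other way, at 63.5, 68.2 and 89.1 with Ecd siRNA against 48.8, 38.6 and 37.3 with control siRNA. It lay under the filter and was not tested, though all its Ecd siRNA values were above all its control values. Averaged over all 4 probe sets, RBL1 was at -0.57 and lost its call (limma adjusted p = 0.0864).

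RBL2, whose protein p130 is the DREAM pocket protein of resting cells, showed no such difference. Its brightest probe set gave 1679.5, 1865.9 and 2148.6 with Ecd siRNA against 1786.9, 1917.9 and 1880.7 with control siRNA. The control arrays lay inside the range of the Ecd siRNA arrays. The log2 change was 0.02 (95% interval -0.19 to 0.24, limma adjusted p = 0.917), so a change larger than that interval was not seen. The other RBL2 probe set was at -0.10 (95% interval -0.51 to 0.32).

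The difference between these sister genes was tested within arrays. The log2 value of RBL1 minus that of RBL2 was -3.21, -3.47 and -4.05 with Ecd siRNA against -1.70, -2.06 and -1.86 with control siRNA. It was lower in all 3 Ecd siRNA arrays than in any control array. The shift was -1.70 with an exact permutation p of 0.1 (two-sided), the smallest that 3 against 3 arrays allow, so p < 0.05 was out of reach. With the probe sets of each gene averaged first, the shift was -0.53. The pair was chosen with these values known.

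RB1, the retinoblastoma gene, was a little lower without passing the threshold. Its brightest probe set gave 2684.5, 3059.2 and 3309.0 with Ecd siRNA against 3234.0, 3794.6 and 3692.3 with control siRNA. The ranges overlapped, since Ecd siRNA replicate 3 lay above control replicate 1. The log2 change was -0.24 (SE 0.09, 95% interval -0.45 to -0.03, limma adjusted p = 0.0972). The other RB1 probe set was at -0.18 with an interval of -0.59 to 0.23.

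**Figure D2:**
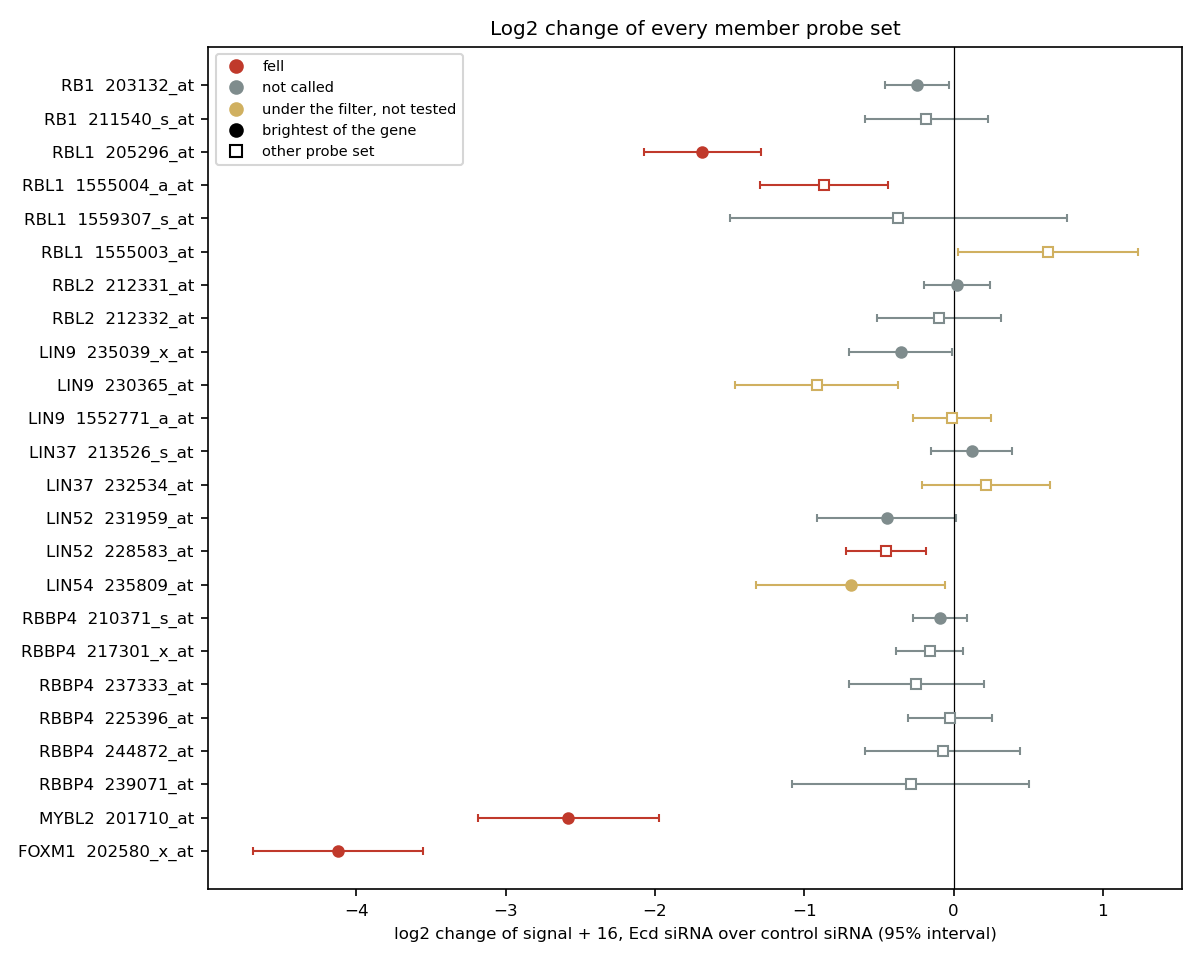
Log2 change of signal + 16 (Ecd siRNA over control siRNA, with 95% interval) of all 24 member probe sets in the fit of each probe set on its own. Filled circles are the brightest probe set of a gene and open squares the others, and colour gives the call. The 5 probe sets that fell belong to RBL1, LIN52, MYBL2 and FOXM1. The 6 of RBBP4 lie at -0.29 to -0.03 with intervals that cross 0, and 1 dim RBL1 probe set lies to the right.

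**Figure D3:**
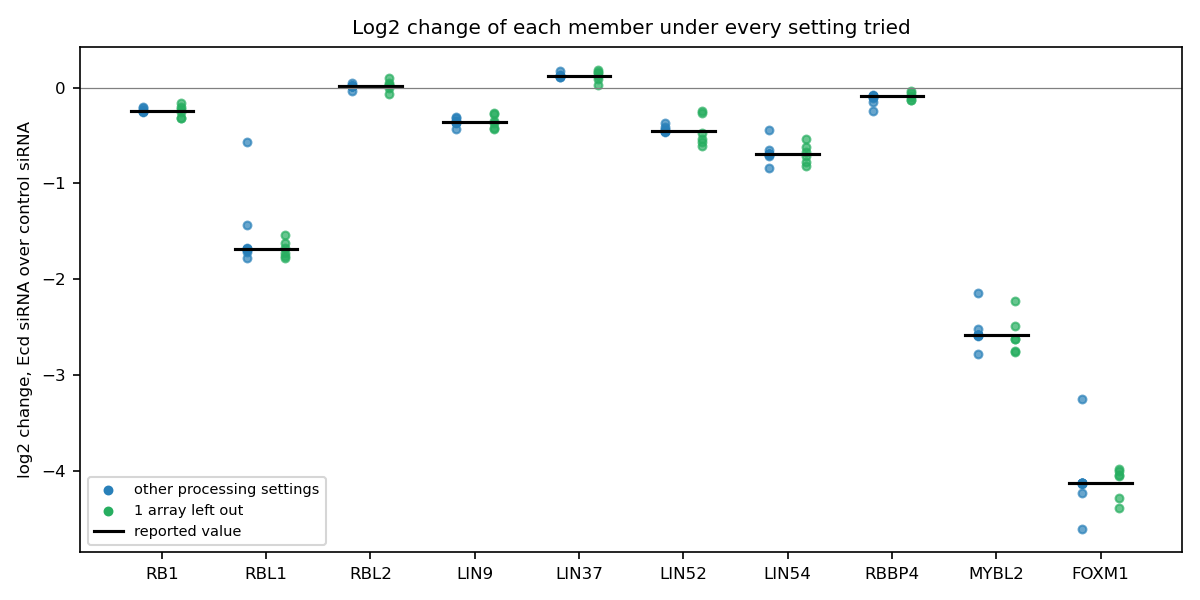
Log2 change of signal + 16 (Ecd siRNA over control siRNA) of each of the 10 members, with the reported value as a black line, other processing settings as blue points and fits with 1 array left out as green points. FOXM1, MYBL2 and RBL1 stay below 0 under every setting run, with RBL1 at -0.57 as its least negative value. So do RB1, LIN9, LIN52, LIN54 and RBBP4, whose brightest probe sets were not called or not tested, while RBL2 crosses 0.

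Taken probe set by probe set, 19 of the 24 lay above the filter, 5 of these fell (26.3%) and 0 rose. In the same fit 16.9% of all probe sets were called, 8.62% lower and 8.30% higher. The groups were fully separate in 6 of the 19, all lower with Ecd siRNA, against 33.6% of all probe sets tested, 16.5% lower and 17.1% higher. Both member counts include FOXM1, which passed the filter through its control arrays alone. Counting also the probe sets under the filter, the groups were separate in 9 of 24 (37.5%), against 26.0% of all, 12.6% lower and 13.5% higher. Of these 9, the dim RBL1 probe set 1555003_at was higher with Ecd siRNA and the others were lower.

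Among the MuvB core genes, 1 LIN52 probe set was called and the brightest probe sets of the 4 tested genes were not. LIN52 encodes the subunit whose phosphorylation by DYRK1A assembles DREAM. Its 2 probe sets gave nearly the same size with different certainty. Probe set 228583_at gave 342.4, 364.7 and 374.0 with Ecd siRNA against 535.8, 480.1 and 483.1 with control siRNA, with no overlap. This probe set fell by 0.45 on the log2 scale (SE 0.12, limma adjusted p = 0.0272 over probe sets), and its adjusted p was 0.0517 to 0.110 when any 1 of the 6 arrays was left out. The brighter probe set, 231959_at, gave 361.4, 543.1 and 567.8 with Ecd siRNA against 643.0, 525.5 and 860.9 with control siRNA. Its groups overlapped, and its change of -0.45 (95% interval -0.90 to 0.0038) was not called (limma adjusted p = 0.158).

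LIN9, a scaffold subunit of the core, was read by 235039_x_at at 234.7, 261.8 and 296.4 with Ecd siRNA against 308.7, 386.8 and 331.9 with control siRNA. The groups did not overlap, but the change of -0.35 (95% interval -0.70 to -0.01) was not called (limma adjusted p = 0.142). Its probe set 230365_at lay under the filter and was lower in every Ecd siRNA array, at 29.5, 28.6 and 31.2 against 70.4, 77.3 and 64.1 with control siRNA. With no filter this probe set passed, with an adjusted p of 0.0472 in limma. The third LIN9 probe set had signals of 1.9 to 3.4 and carried no readable level.

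LIN54, the DNA-binding subunit that reads the CHR element, had 1 probe set, which lay under the filter. It gave 48.7, 58.9 and 43.7 with Ecd siRNA against 73.5, 115.1 and 87.6 with control siRNA. Every Ecd siRNA array was below every control array, at a log2 change of -0.69 (SE 0.26). Tested without the filter it was not called (limma adjusted p = 0.128), and its size was -0.44 with a pseudocount of 64.

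LIN37, a subunit needed for repression by DREAM, gave 532.5, 558.9 and 662.2 with Ecd siRNA against 564.2, 508.1 and 530.7 with control siRNA. The ranges overlapped and the change of 0.12 was not called (95% interval -0.14 to 0.39, limma adjusted p = 0.549). Its other probe set had signals of only 10.9 to 22.1.

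RBBP4 encodes the histone-binding WD40 subunit that MuvB shares with other chromatin complexes. Its brightest probe set gave 2230.9, 2441.9 and 2548.1 with Ecd siRNA against 2569.5, 2677.6 and 2441.2 with control siRNA. The ranges overlapped, and the change of -0.09 was not called (95% interval -0.27 to 0.08, limma adjusted p = 0.486). All 6 RBBP4 probe sets were on the lower side, at -0.29 to -0.03, and 0 of the 6 were called. They read 1 gene and are not separate evidence.

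The genes around the members came from lists written from textbook knowledge with earlier results of these data known. Their counts stand beside 21.1% of all tested genes called, 11.0% lower and 10.1% higher. In a list of the E2F and DP partners of the DREAM pocket proteins and the LIN52 kinase gene DYRK1A, 2 of 5 fell and 0 rose. The median log2 change was 0.11, the value of DYRK1A itself, against 0.0078 for all tested genes. E2F4, the repressor E2F of DREAM, was at 2019 ± 113.7 with Ecd siRNA and 2587 ± 232.9 with control siRNA (SD, n = 3 each), a log2 change of -0.35 (limma adjusted p = 0.0156). TFDP1, its DP partner, changed by -0.32 (limma adjusted p = 0.0141). Both calls were lost without the intensity trend and without control replicate 1, at limma adjusted p of 0.0664 to 0.0823. Averaged over its probe sets, E2F4 was at -0.25 and also lost its call (limma adjusted p = 0.243). TFDP2, E2F5 and the LIN52 kinase gene DYRK1A, which were named to complete the list after their values were seen, were at 0.28, 0.17 and 0.11 and were not called.

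Of the 3 paralogs of members, RBBP7, the sister of RBBP4, fell by 0.38 on the log2 scale (limma adjusted p = 0.00559). It gave 5725.3, 4938.9 and 4819.6 with Ecd siRNA against 6467.7, 6962.9 and 6679.0 with control siRNA, and the groups did not overlap. MYB and MYBL1, the relatives of MYBL2 (MYBL1 named after its value was seen), were at -0.37 (95% interval -0.99 to 0.25) and -0.10 (-0.42 to 0.21) and were not called.

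Of 13 tested kinases, cyclins and inhibitors that set the phosphorylation of pocket proteins, 7 fell, 1 rose and 5 were not called, with a median of -0.38. CCNA2, the S phase cyclin A gene, was at 402.4 ± 31.5 with Ecd siRNA and 2311 ± 109.8 with control siRNA (log2 change -2.48, limma adjusted p = 1.13e-07). CCNE2, a cyclin E gene, changed by -1.36, and its kinase gene CDK2 by -0.90. CDKN2B, which encodes the CDK4 and CDK6 inhibitor p15, rose to 3480 ± 467.4 with Ecd siRNA, against 1428 ± 235.3 with control siRNA (log2 change 1.28, limma adjusted p = 6.92e-05). Averaged over its probe sets, CDK2 lost its call (limma adjusted p = 0.161).

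Nearly all listed target genes of the machinery fell. Every one of 32 tested G2/M genes of MuvB, MYBL2 and FOXM1 was called lower, between -3.36 and -0.80 on the log2 scale, and the median was -2.38. The 4 with the smallest adjusted p were the cyclin gene CCNB1 (-2.69), the spindle gene HMMR (-3.03), TOP2A (-2.74) and the survivin gene BIRC5 (-3.36). Of 30 tested G1/S genes of E2F and DREAM, 28 fell and 0 rose, with a median of -1.27. Among them were RRM2 (-2.45), UHRF1 (-2.10), TYMS (-1.40) and TK1 (-2.01), genes of nucleotide supply and DNA methylation. The 2 that were not called were E2F2 (-1.03) and E2F3 (0.21), named after their values were seen. The 28 include CDC45 (also named after its value was seen) and E2F8, with Ecd siRNA means of 51.9 and 63.1, under the filter level. Both entered the test through their control arrays, so this count is given as a description. The median fall of the G2/M list lay between the falls of RBL1 and MYBL2.

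**Figure D4:**
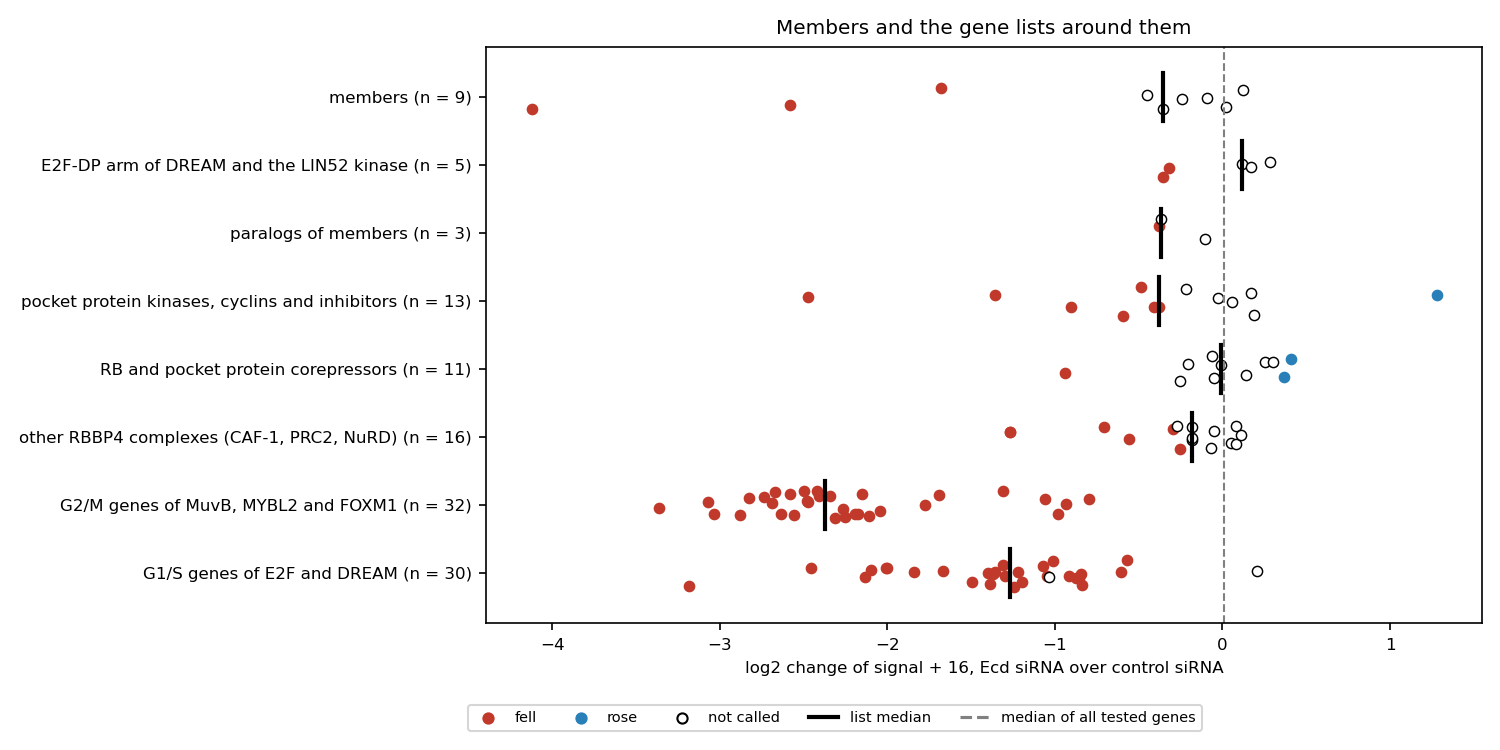
Log2 change of signal + 16 (Ecd siRNA over control siRNA) of every tested gene of the members and of the 7 lists around them, with 1 point per gene spread vertically for visibility. Filled points passed the threshold (red fell, blue rose), open points did not, the black bar is the list's median and the dashed line the median of all tested genes. The 32 G2/M genes all lie at -0.80 or lower, and the members spread from -4.12 to 0.12.

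Corepressors that pocket proteins recruit went both ways, with 2 rises, 1 fall and 8 not called among 11 tested and a median of -0.0062. The share called was 27.3%, near the 21.1% of all tested genes. SUV39H1, a histone H3 lysine methyltransferase gene, changed by -0.94 (limma adjusted p = 0.000777). The histone demethylase gene KDM5A (0.41) and the deacetylase gene HDAC3 (0.37) rose. With arrays set to a common median both calls were lost, at limma adjusted p of 0.0511 for KDM5A and 0.0627 for HDAC3. Averaged over probe sets KDM5A was at 0.27 (limma adjusted p = 0.135), and in probe sets without _s or _x its adjusted p was 0.0751. The HDAC3 call was also lost without Ecd siRNA replicate 3, control replicate 1 or control replicate 3 and without the intensity trend, at limma adjusted p of 0.0520 to 0.0568.

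RBBP4 also serves the histone chaperone CAF-1, the methyltransferase PRC2 and the remodeller NuRD. In a list of these complexes and of the ASF1 chaperones that hand histones to CAF-1, 6 of 16 tested genes fell and 0 rose, with a median of -0.18. ASF1B and the CAF-1 subunit gene CHAF1A each changed by -1.27, EZH2, the catalytic subunit of PRC2, by -0.71 and CHAF1B of CAF-1 by -0.56. ASF1B was at 455.9 ± 19.3 with Ecd siRNA and 1122 ± 44.2 with control siRNA (SD, n = 3 each; limma adjusted p = 8.87e-06). Among the listed NuRD genes MBD2 fell (-0.25, limma adjusted p = 0.0207, named after its value was seen). The other NuRD genes, at -0.27 to 0.11, were not called. RBBP4 itself, at -0.09, was not called.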

How the data were processed

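The deposited table gives an unlogged intensity for each of 54675 probe sets on 6 arrays, made by the authors with MAS5 per the submitters' processing notes, of which the version and target level are unstated in the sources used here. Signals were not rescaled. A gene was named from the GEO platform annotation where a probe set had 1 symbol, and the gene identifiers of all 10 members had the same symbols in RefSeq on GRCh38.p14.

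Values were converted to log2(signal + 16), a scale on which a fold change understates dim transcripts, and tested with limma 3.58.1 under R 4.3.3 (lmFit, eBayes with an intensity trend, no covariates). P-values were adjusted by Benjamini-Hochberg over all 14603 genes or all 27009 probe sets. The filter kept the upper 60% of all probe sets. The exact permutation test used SciPy 1.17.1. The number of arrays limits the precision, so p-values reflect spread among 6 cultures. Named genes were all members, ECD and, of each other list, up to 4 genes past the threshold with the smallest adjusted p (the 2 smallest p where fewer than 2 passed). Beside these, the 3 genes most correlated with FOXM1, MYBL2 and RBL1 were taken. The members, lists and tests were chosen with earlier results of these data known. Replicate numbers were shared between groups. Deviations of same-numbered arrays correlated at -0.0093, 0.079 and 0.15, and those of arrays with unlike numbers at -0.13 to 0.057. The numbers were not taken to pair the cultures, though these few values do not settle whether they do. Alternatives were other pseudocounts, normalizations, filters and probe set choices, array weights, eBayes without trend, a block for the replicate number and leaving out each array.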

Additional observations from a re-analysis of the deposited data

How the results depend on the processing

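The calls of FOXM1 and MYBL2 held under each alternative in which they were tested, and FOXM1 lay under the stricter filter of the upper 40%. In the reported fit FOXM1 had passed the filter through its control arrays alone. FOXM1 ranged from -4.61 to -3.25 and MYBL2 from -2.78 to -2.14. RBL1 kept its call except when its probe sets were averaged, and ranged from -1.78 to -0.57. The count of called members was 2 to 4 over the alternatives and 3 whichever array was left out. The count of called member probe sets was 5, against 3 with the upper 40% filter, where fewer were tested, 6 with no filter, and 3 to 4 with 1 array left out, with the lowest count without control replicate 1. With the replicate number as a replicate block 4 members were called, RB1 joining at an adjusted p of 0.0354 in limma, and 3277 genes against 3075. Not every array correlated best with its own number. RBL2 reversed to -0.037 when its probe sets were averaged, and its values with 1 array left out ran from -0.071 to 0.10, below 0 without Ecd replicate 3 (-0.071) or control replicate 1 (-0.0082). MYB likewise reversed to 0.196 when averaged. ITGB4, a basal marker at 0.29, reversed to -0.13 when averaged and to -1.12 in probe sets without _s or _x, where it passed as a fall (limma adjusted p = 0.0155). The cause was not tested. The shift of RBL1 minus RBL2 was -1.89 to -0.53 over the alternatives. With no detection calls used, signals near or under the filter level limit LIN9, LIN54 and the dim arrays of FOXM1 and MYBL2.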

Other observations

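For 3 members the genes most alike over the 6 arrays were listed by Pearson correlation of log2 values. The 6 points form the 2 siRNA groups, so the correlations mostly restate the difference between groups and are given as a description. The genes nearest to FOXM1 were KITLG, which encodes the KIT ligand (log2 change -0.81), the methyltransferase gene MRM2 (-0.44) and CDCA8, a chromosomal passenger gene (-2.43), with r of 0.999 each. CDCA8 had a mean signal of 220.8 with Ecd siRNA and 1244 with control siRNA. Those nearest to MYBL2 were AASS of lysine breakdown (-1.01, r = 0.999), the origin recognition gene ORC1 (-1.67, r = 0.998) and ATF3, a stress-induced transcription factor gene (-0.47, r = 0.998). ORC1 had a mean signal of 59.6 with Ecd siRNA and 219.2 with control siRNA. Averaged over probe sets, AASS and ATF3 lost their calls (limma adjusted p = 0.0908 for AASS and 0.251 for ATF3). In probe sets without _s or _x, ATF3 was at -0.0022 (limma adjusted p = 0.995). The AASS call was also lost without any 1 of the 3 control arrays, at limma adjusted p of 0.0508 to 0.0626, and that of ATF3 without control replicate 1 (0.0609). Those nearest to RBL1 were E2F8, an atypical repressor E2F (-1.84), the transporter gene SLC43A3 (-1.25) and the kinetochore gene NDC80 (-2.82), with r of 0.997 each. The Ecd siRNA means of AASS (74.2), ORC1 (59.6) and E2F8 (63.1) lay under the filter level, so the sizes of their falls are not well set.

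Calls were made for 33.3% of tested basal, 28.6% of luminal, 33.3% of fibroblast and 0% of endothelial and leukocyte markers. Over all tested genes the share was 21.1%. Of the marker lists, 2 of 6 tested basal genes rose and 0 fell, the P-cadherin gene CDH3 (0.38) and the integrin gene ITGB4 (0.29). CDH3 lost its call without the intensity trend (limma adjusted p = 0.0609). ITGB4 turned to a called fall of -1.12 in probe sets without _s or _x (limma adjusted p = 0.0155), and lost its call without the trend, without Ecd siRNA replicate 2 and without control replicate 3 (0.0521 to 0.106). Of 7 tested luminal genes, GATA3 rose (0.46) and KRT18 fell by 0.52 on the log2 scale. In probe sets without _s or _x, GATA3 was at 0.29 and lost its call (limma adjusted p = 0.218). Of 6 tested fibroblast genes, FAP (1.03) and COL1A1 (0.52) rose. The other 4 were not called, with THY1 (-0.32) and COL1A2 (-0.17) lower and VIM (0.14) and DCN (0.11) higher. Averaged over its probe sets, COL1A1 was at 0.23 and lost its call (limma adjusted p = 0.263). The 2 tested endothelial and leukocyte genes, PECAM1 (-0.20) and MS4A1 (-0.48), were not called.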
